A study of Homo sapiens with 18 samples.

Results

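The aldo-keto reductases described here are AKR1D1, AKR1C1, AKR1C2, AKR1C3, AKR1B1, AKR1B10, AKR1A1 and AKR7A2, 8 genes chosen by name because AKR1D1 showed the largest rise of any gene in the resistant line PEO4. RNA-seq values were available for 6 of the 8, among 12853 genes in the table, and AKR1C1 and AKR1C2 were not analysed here. Expression was measured in 18 libraries, 3 replicates of each of 6 human ovarian cancer cell lines that form 3 pairs, to ask which genes differ between platinum-sensitive and platinum-resistant cells. A2780 is a platinum-sensitive line labelled endometrial/ovarian, and CP70 is a resistant derivative obtained from it in vitro. The PEA lines derive from the ascites of 1 person with high-grade serous ovarian cancer (HGSOC), with PEA1 taken before any platinum was given and PEA2 once the tumour had returned and no longer responded. The PEO lines derive from another person with HGSOC, already treated with platinum, with PEO1 taken while the disease was still sensitive and PEO4 once it was resistant. The lines grew in RPMI-1640 with glutamine and fetal bovine serum, no library was labelled as drug-treated, and total RNA was depleted of ribosomal RNA. Each group is 1 cell line, so a difference within a pair is a difference between 2 cell lines.

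Aldo-keto reductases are soluble enzymes that use NADPH to reduce aldehydes and ketones to alcohols. AKR1D1 is the steroid beta-reductase, which reduces the double bond of the steroid A ring in bile acid synthesis and in the clearance of steroid hormones, and it is best known as a liver enzyme. AKR1C enzymes interconvert ketosteroids and hydroxysteroids, AKR1C3 also makes prostaglandin F, AKR1B1 is the aldose reductase of the polyol pathway, and AKR1B10 is a related enzyme active on retinal and other aldehydes. AKR1A1 and AKR7A2 are broadly expressed aldehyde reductases. Several members are known targets of the transcription factor NRF2 (NFE2L2), which KEAP1 holds in check.

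The promoters of AKR1D1, AKR1C3 and AKR1B1 are shown because the main differences between lines described below concern these genes. Each run holds the 250 bases before the transcription start in RefSeq (GRCh38.p14), on chr7:138076209-138076458 (plus strand) for AKR1D1, chr10:5094164-5094413 (plus strand) for AKR1C3 and chr7:134459101-134459350 (minus strand) for AKR1B1. Capitals mark matches on either strand to the CCAAT box (letters CCAAT), the TATA box (letters TATAAA) or the core of the antioxidant response element that NRF2 binds, searched as TGACNNNGC and also as TGAGNNNGC.
AKR1D1: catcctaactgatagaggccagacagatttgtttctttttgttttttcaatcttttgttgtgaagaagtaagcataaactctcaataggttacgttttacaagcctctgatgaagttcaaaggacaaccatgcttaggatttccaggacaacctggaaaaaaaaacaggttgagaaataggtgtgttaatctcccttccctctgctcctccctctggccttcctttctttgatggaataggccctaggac
AKR1C3: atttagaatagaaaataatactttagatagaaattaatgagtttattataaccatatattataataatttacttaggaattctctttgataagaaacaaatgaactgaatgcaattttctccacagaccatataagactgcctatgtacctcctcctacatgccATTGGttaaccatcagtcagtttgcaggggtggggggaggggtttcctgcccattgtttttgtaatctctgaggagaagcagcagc
AKR1B1: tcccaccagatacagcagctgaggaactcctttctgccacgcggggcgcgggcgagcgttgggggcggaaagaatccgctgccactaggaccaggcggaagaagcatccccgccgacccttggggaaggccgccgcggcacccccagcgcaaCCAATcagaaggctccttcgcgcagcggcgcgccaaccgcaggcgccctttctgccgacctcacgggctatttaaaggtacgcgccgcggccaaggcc

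The AKR1D1 run held none of these letters, and the AKR1C3 and AKR1B1 runs each held a CCAAT match, a motif present in 32% of 35116 RefSeq promoters of this length. The GC content was 40.8% for AKR1D1, 35.6% for AKR1C3 and 68% for AKR1B1, against a median of 58% over all these promoters. The antioxidant response element core occurred in 23.9% of the promoters, among them those of AKR1C1, AKR1C2 and AKR7A2, and the TATA box in 10.7%. AKR1C3 has a second listed promoter, not printed, whose 250 bases held a CCAAT and a TATA match. A second one of AKR1B1, also not printed, held no match and had a GC content of 50.8%. A match is a description of letters and not a binding site. AKR1B10 had no entry in the promoter table.

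The AKR1C genes lie side by side on chromosome 10 and share long stretches of coding sequence, which limits how reads can be assigned among them. The first 60 coding bases in GENCODE v44lift37 show this, with capitals at the bases that differ from AKR1C3.
AKR1C3: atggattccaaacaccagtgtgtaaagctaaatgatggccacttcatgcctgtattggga
AKR1C1: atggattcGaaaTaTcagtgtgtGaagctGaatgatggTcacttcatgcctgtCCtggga
AKR1C2: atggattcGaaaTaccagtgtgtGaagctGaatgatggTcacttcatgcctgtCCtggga
AKR1C4: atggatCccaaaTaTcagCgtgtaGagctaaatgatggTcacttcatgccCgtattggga

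AKR1C1 differed from AKR1C3 at 8 of these 60 bases, and AKR1C2 and AKR1C4 at 7 each. Over the whole coding sequence of 969 bases, AKR1C3 was 91.4% identical to AKR1C1, 91% to AKR1C2 and 88.5% to AKR1C4, but 63.4% identical to AKR1D1. Of all stretches of 50 bases in the AKR1C3 transcript, 18.6% occurred unchanged in a transcript of another gene, mostly AKR1C2 and AKR1C1. The same share was 17.3% for AKR1B10 (mostly AKR1B15), 8.01% for AKR7A2, 4.95% for AKR1B1, 0.569% for AKR1D1 and 0% for AKR1A1. Levels of AKR1C3 and AKR1B10 are therefore uncertain where such reads were split among copies or dropped.

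For comparison, the first 60 coding bases of the aldose reductase AKR1B1 and its neighbour AKR1B10 are shown, with capitals where AKR1B10 differs from AKR1B1.
AKR1B1: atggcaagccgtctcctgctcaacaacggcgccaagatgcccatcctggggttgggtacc
AKR1B10: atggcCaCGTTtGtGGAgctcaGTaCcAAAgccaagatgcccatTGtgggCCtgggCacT

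These runs differed at 21 of 60 bases, and the coding sequences were 76.5% identical. On GRCh37, the build of the deposited table, AKR1B1 lies on chr7:134127108-134144036 (minus strand), AKR1B10 on chr7:134212319-134226164 (plus strand), AKR1D1 on chr7:137687070-137803051 (plus strand), AKR1C3 on chr10:5077546-5149878 (plus strand), AKR1A1 on chr1:46016215-46035721 (plus strand) and AKR7A2 on chr1:19630459-19638638 (minus strand). These are the spans of whole genes, and the values are read counts over a gene rather than over an isoform.

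The table held 1344098 to 7067336 reads per library, with the shallowest libraries in PEA1 and the deepest in PEO1. Levels below are given as CPM, the reads of a gene scaled to library size, and 3 reads corresponded to 0.452 to 2.18 CPM. Changes are log2 fold changes (log2FC), resistant minus sensitive, of the deposited log2 values, which have 0.5 reads added. A gene with 0 reads in all 6 libraries of the A2780 pair therefore has a log2FC of -0.55 that reflects library size alone, and no fold is given where neither line exceeded 3 reads. Exact intervals of ratios and floors cover counting error only. The SE and interval of a log2FC come from the spread between libraries in the limma fit of all 6 lines. The labels do not say that replicates were separate cultures, so FDR values measure the spread between these libraries. The hepatocyte markers were represented by SERPINA1 alone of 20, at 0 reads in A2780 and CP70, and the other 19 were not analysed here. All 12 ovarian serous markers were measured, and their summed level was 2.52 to 3.13 CPM in A2780, 91.2 to 97.1 in CP70, 495 to 657 in PEA1, 3520 to 3911 in PEA2, 7594 to 8602 in PEO1 and 6113 to 7804 in PEO4. PAX8, which marks Mullerian epithelium, was at 0 reads in A2780 and at most 1 read in CP70, and WT1 was at 0 in both. Of 9 leukocyte and endothelial markers, PTPRC and CDH5 were measured, and they reached 46 to 70 and 66 to 88 reads in PEA2 but 0 in PEA1.

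AKR1D1, the gene for which the set was chosen, was abundant in PEO4 and at or near 0 in the other lines. In PEO4 it had 572, 609 and 543 reads, or 198, 203 and 220 CPM. In PEO1 it had 0, 0 and 1 reads. All 3 PEO4 libraries thus lay far above all 3 PEO1 libraries. In such bulk RNA, more expressing cells and more RNA per cell cannot be told apart. Summed over libraries, the 1724 reads in PEO4 and 1 read in PEO1 gave a ratio of 2579 after scaling, with a 95% exact counting interval from 462 to 101918. That interval covers the counting error of pooled reads, and neither the spread between libraries nor the choice of the gene by this contrast. The fitted log2FC of 10.11 was the highest of the 12853 genes, ahead of COL3A1 at 8.95, and it fell to 8.45 when 2 reads were added to each count instead of 0.5. This contrast selected the genes, so the values are a description and no test is given.

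Outside the PEO pair AKR1D1 stayed at the floor. It had 0 reads in each of the 6 libraries of A2780 and CP70, which allows up to 3 reads per library. PEA1 had 0, 0 and 1 reads and PEA2 had 3 reads in each library. The PEA comparison passed the FDR threshold (FDR = 0.00336), but since neither line exceeded 3 reads no fold is given. In the order of mean levels PEO4 (207 ± 11.7 CPM, SD, n = 3) stood above PEA2 (1.28 ± 0.377), then PEA1, PEO1 and the A2780 pair, and from PEA1 downward the libraries of neighbouring lines overlapped.

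**Figure D1:**
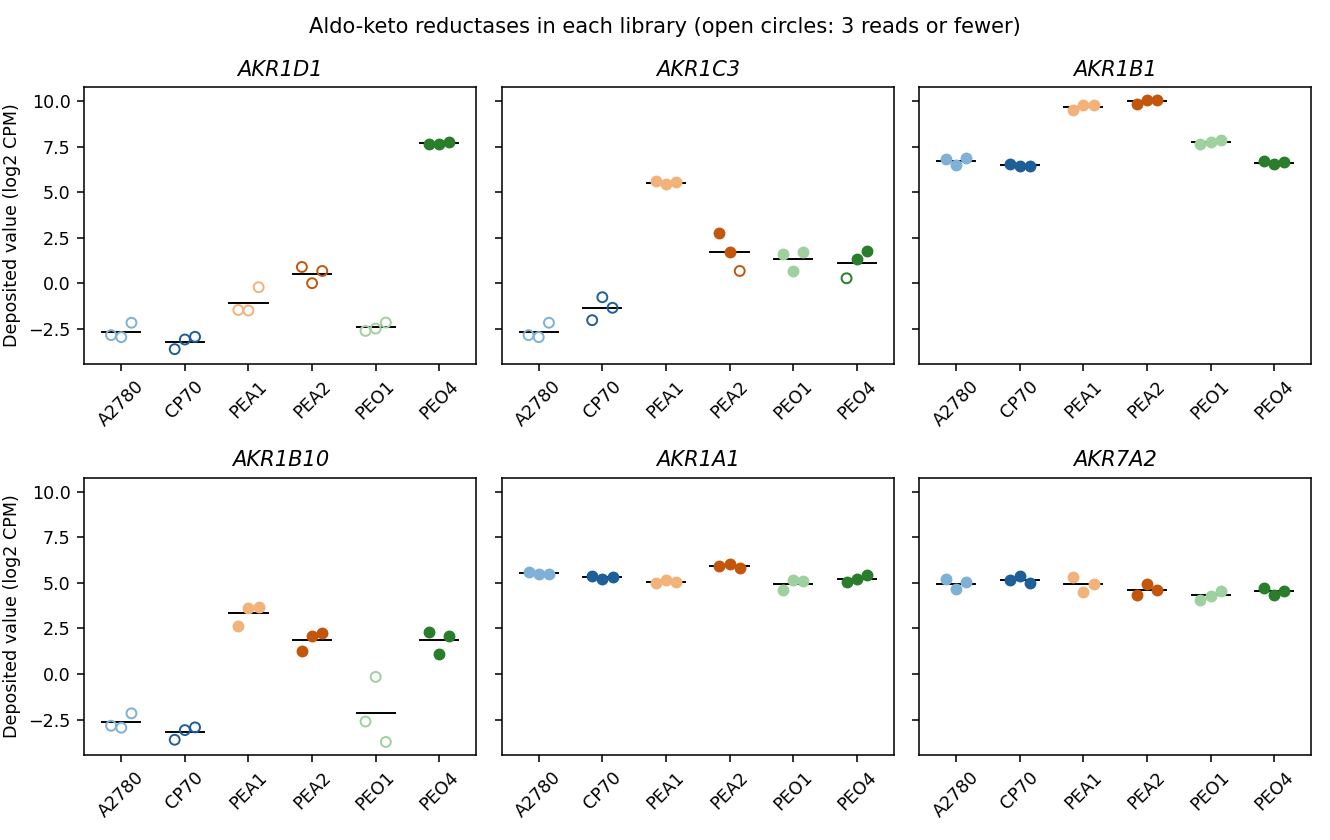
Deposited value (log2 CPM) of the 6 measured aldo-keto reductases in each of 18 libraries, by cell line. Each point is a library, open where it held 3 reads or fewer, and the bar is the mean of 3. AKR1D1 is high in the 3 PEO4 libraries only, AKR1C3 in the 3 PEA1 libraries, and AKR1B1 is highest in PEA1 and PEA2. AKR1A1 and AKR7A2 have filled points in every line, with AKR1A1 highest in PEA2.

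AKR1C3, the ketosteroid and prostaglandin F synthase, fell in PEA2. PEA1 had 66, 61 and 81 reads (47.9, 43.5 and 46.6 CPM) and PEA2 had 12, 11 and 3 reads (6.40, 3.17 and 1.37 CPM), with no overlap. The log2FC was -3.82 ± 0.51 (SE, n = 3 against 3), or 14.1-fold lower, with a limma FDR of 2.39e-06. Levels in the other lines were low. PEO1 had 9, 4 and 21 reads and PEO4 had 3, 7 and 8 reads, and their CPM values overlapped (log2FC -0.21). A2780 had 0 reads in each library and CP70 had 1, 2 and 1 reads, too few for a fold. PEA1 at 46.0 ± 2.30 CPM was thus the highest line, and PEA2, PEO1 and PEO4 followed with overlapping libraries.

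AKR1B1, aldose reductase, was the most abundant member per kilobase of annotated exon in every line but PEO4. Its level was 721, 885 and 877 CPM in PEA1 and 908, 1074 and 1077 CPM in PEA2. The PEA2 libraries all lay above those of PEA1, by a log2FC of 0.30 ± 0.11 (FDR = 0.0204). This small rise was not stable. It turned to -0.05 under quantile normalization (FDR = 0.728), and it missed the threshold with the pair fitted alone (FDR = 0.0543), without PEA1 replicate 1 (0.21, FDR = 0.126), without PEA2 replicate 2 (0.26, FDR = 0.0687) and without PEA2 replicate 3 (0.26, FDR = 0.0755). In the A2780 pair the level was 112, 90.0 and 119 CPM in A2780 and 92.6, 85.8 and 88.1 CPM in CP70, which overlapped, with a log2FC of -0.26 ± 0.11 (FDR = 0.0659). Without A2780 replicate 2 that value was -0.38 and passed (FDR = 0.00836).

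In the PEO pair AKR1B1 was lower in the resistant line. PEO1 had 203, 220 and 235 CPM and PEO4 had 103, 93.4 and 100 CPM, a log2FC of -1.15, and the libraries did not overlap. This direction is opposite to that of AKR1D1 in the same pair. Across lines AKR1B1 was highest in PEA2 and PEA1, then PEO1, and lowest in A2780, PEO4 and CP70, with A2780 and PEO4 overlapping.

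AKR1B10, which lies next to AKR1B1, was a low gene with reads in the HGSOC lines alone. It had 0 reads in all 6 libraries of A2780 and CP70. PEA1 had 8, 17 and 22 reads and PEA2 had 4, 14 and 10 reads. The CPM values were 5.81, 12.1 and 12.7 in PEA1 and 2.13, 4.03 and 4.57 in PEA2, which did not overlap, and the log2FC of -1.46 ± 0.66 missed the threshold (FDR = 0.0604). It passed under 4 alternatives, with the pair fitted alone (FDR = 0.0162), quantile normalization (-1.87, FDR = 0.0023), voom weights (FDR = 0.0104) and 2 reads added (FDR = 0.0122), and without PEA1 replicate 1 (-1.80, FDR = 0.0422). The SE of 0.66 comes from the fit of all 6 lines. The SD of the log2 values was 0.6 in PEA1 and 0.53 in PEA2, but 1.83 in PEO1. PEO1 had 0, 2 and 0 reads and PEO4 had 14, 6 and 10. The 30 reads in PEO4 against 2 in PEO1 gave a ratio of 22.4, with a 95% exact counting interval from 5.69 to 194. This interval too covers the counting error of pooled reads alone, in the pair that selected the genes. AKR1B10 was thus higher in PEO4, as AKR1D1 was, but at 3.63 ± 1.47 CPM (SD, n = 3).

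AKR1A1, an aldehyde reductase that also acts in ascorbate and glucuronate metabolism of other mammals, rose in PEA2. Its level was 32.0, 34.9 and 33.4 CPM in PEA1 and 60.3, 65.9 and 57.2 CPM in PEA2, with no overlap. The log2FC was 0.86 ± 0.15, or 1.82-fold, at an FDR of 4.4e-05. In the A2780 pair the values were 48.4, 45.4 and 45.1 CPM against 42.3, 36.5 and 40.0 CPM, which did not overlap, and the log2FC of -0.23 ± 0.15 missed the threshold (FDR = 0.235). In the PEO pair they were 23.8, 35.4 and 34.5 against 32.5, 36.4 and 43.4 CPM, which overlapped.

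AKR7A2, the aflatoxin aldehyde and succinic semialdehyde reductase, was expressed in all lines and passed in neither tested pair. Its line means ran from 19.8 CPM in PEO1 to 35.9 CPM in CP70, and the libraries of every line overlapped those of the next line in that order. Lines at the ends of the order did not overlap, with 16.65 to 23.51 CPM in PEO1 and 31.55 to 40.53 CPM in CP70. The log2FC was 0.20 ± 0.21 in the A2780 pair (95% interval -0.25 to 0.65, FDR = 0.484) and -0.28 ± 0.21 in the PEA pair (95% interval -0.73 to 0.16, FDR = 0.258). In the PEO pair its libraries overlapped, with a log2FC of 0.25.

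Counted together, the members gave no call between A2780 and CP70 and several between PEA1 and PEA2. Between A2780 and CP70 0 of 6 passed an FDR of 0.05 by limma, against 39.9% of all genes, while 2 of 6 had an unadjusted p below 0.05 and limma with voom weights also called 0. AKR1D1 and AKR1B10 had 0 reads in every library of this pair and AKR1C3 at most 2. Only AKR1B1, AKR1A1 and AKR7A2 were above the floor there, so the count is not a sign of stable expression. In the PEA pair 4 of 6 passed (66.7%), AKR1D1, AKR1B1 and AKR1A1 as higher and AKR1C3 as lower, against 61.9% of all genes, and voom weights called 5. A share so near the background is no result about the members. At an additional |log2FC| above 2, the study's criterion for a differentially expressed gene, 0 of 6 passed for CP70 (9.06% of all genes) and 1 of 6, AKR1C3, for PEA2 (14.1% of all genes). The median log2FC of the 6 was -0.24 and 0.01 in these pairs, against -0.02 and 0.01 over all genes. In the PEO pair the libraries of 3 of 6 members did not overlap, as for 57.5% of all genes, and nothing is read from this since the pair was used to choose them.

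**Figure D2:**
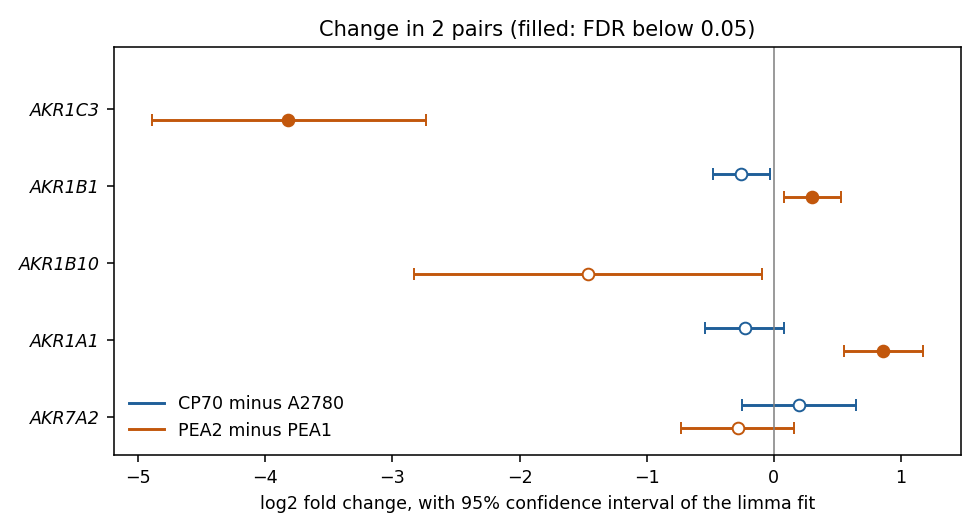
log2 fold change (resistant minus sensitive) of 5 members in the A2780 pair and the PEA pair, with the 95% confidence interval of the limma fit, filled where the FDR is below 0.05. AKR1C3 at -3.82 is the only value beyond 2, AKR1A1 lies at 0.86 in the PEA pair, and pairs in which neither line exceeded 3 reads are left out.

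The changes of AKR1C3, AKR1B1 and AKR1A1 differed between the PEA and A2780 pairs when the difference itself was tested, but that of AKR1B1 (0.56, FDR = 0.00398) did not pass under quantile normalization (0.18, FDR = 0.322). AKR1C3 had at most 2 reads in any library of the A2780 pair, so the size of its difference depends on the reads added. It was -5.10 with 0.5 reads added and -3.73 with 2. With AKR1D1, which was at the floor in both pairs, 4 of 6 members passed this test, against 57.5% of all genes. PTPRC, CDH5 and the serous markers moved with the PEA pair too. Of the serous list 9 of 12 were higher in PEA2, against 32.5% of all genes, among them KRT7, at 1 to 3 reads in PEA1 and 1968 to 3913 in PEA2, KRT19, at 1 to 3 and 1040 to 2129 reads, and MUC16, at 0 to 5 and 211 to 576 reads. In CP70 4 of 12 were higher and 1 lower than in A2780, against 22.2% and 17.7% of all genes, and the lower one, FOLR1, had at most 1 read in any library of the pair. Among the higher ones were KRT18 at 3 reads in each A2780 library and 242 to 407 in CP70, KRT8 at 0 to 2 and 42 to 82 reads, and EPCAM at 2 to 5 and 59 to 95 reads. The part of these marker differences in the results for the aldo-keto reductases was not tested.

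Per kilobase of annotated exon, the makeup of the measured members differed between lines. Their summed level was 61.8 ± 7.39 CPM per kb in A2780, 57.3 ± 2.25 in CP70, 272 ± 23 in PEA1, 316 ± 29.1 in PEA2, 81.9 ± 8.19 in PEO1 and 116 ± 6.23 in PEO4 (SD, n = 3). AKR1B1 made up 88.3% ± 0.873 of this sum in PEA2 and 73.3% ± 2.11 in PEO1, but 23.4% ± 1.09 in PEO4. AKR1D1 made up 52.6% ± 1.73 of the sum in PEO4 and 0.0165% ± 0.0285 in PEO1. On this length, AKR1D1 in PEO4 at 60.7 ± 3.43 CPM per kb was close to AKR1B1 in PEO1 at 59.98 ± 4.43 CPM per kb. The length joins the exons of all annotated transcripts, 3.412 kb for AKR1D1 and 3.654 kb for AKR1B1. The transcripts used above for the stretches of 50 bases were 2684 and 1361 bases long. Both this closeness and the shares therefore depend on the length chosen. In A2780 and CP70, where AKR1D1 and AKR1B10 were at 0, the sum was shared among AKR1B1 (47.3% and 42.5%), AKR7A2 (28.5% and 35.2%) and AKR1A1 (24.2% and 22.2%).

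**Figure D3:**
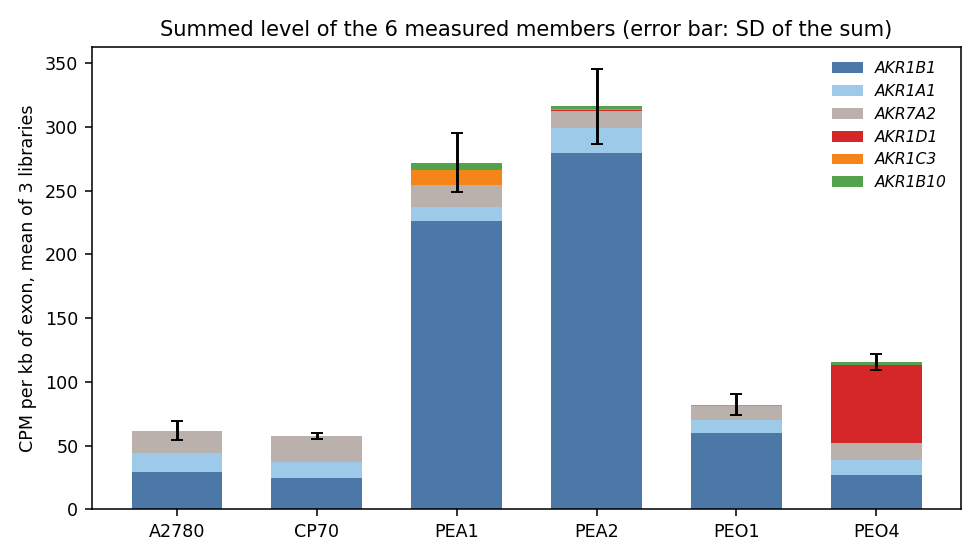
Level of the 6 measured members in CPM per kilobase of exon, stacked, as the mean of 3 libraries per line, with the SD of the sum as error bar. AKR1B1 makes up most of the bars of PEA1, PEA2 and PEO1. AKR1D1, chosen for its rise in PEO4, makes up 52.6% of the PEO4 bar.

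Of 9 other aldo-keto reductases looked for, AKR1E2 was measured. It lies on chr10:4828821-4890254, upstream of the AKR1C genes, and reduces anhydrofructose. It had 0 reads in each A2780 library and 19, 11 and 10 reads in CP70, at least 2.90-fold higher than a floor of 3 reads per library (FDR = 7.21e-08). PEA1 had 0 reads and PEA2 had 2, 1 and 1. PEO1 had 49, 41 and 85 reads and PEO4 had 10, 11 and 15, a log2FC of -1.71 with no overlap. AKR1E2 thus lay lower in PEO4, where AKR1D1 lay higher.

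The 4 measured genes near AKR1D1 did not share its profile over the lines. Their libraries did not overlap in the PEO pair, as for 57.5% of all genes. CREB3L2, TRIM24 and ENSG00000230383 were higher in PEO4 and DGKI was lower. CREB3L2, a transcription factor of the unfolded protein response, starts 0.238 kb from the most upstream annotated AKR1D1 start and is read from the opposite strand. The AKR1D1 transcript whose coding sequence was compared above starts much further away, at chr7:137761205 against chr7:137686832 for CREB3L2. Which AKR1D1 start was used in these lines was not tested. CREB3L2 had 223 to 522 reads in PEO1 and 423 to 527 in PEO4, a log2FC of 1.15. It was expressed in all 6 lines, with a log2FC of -0.45 in the A2780 pair (FDR = 0.001056) and 1.24 in the PEA pair (FDR = 1.581e-09). DGKI, a diacylglycerol kinase on the far side of CREB3L2, went the other way from AKR1D1 in the PEO pair, with 136 to 348 reads in PEO1 and 1 to 4 in PEO4 (log2FC -5.66). In the PEA pair it had 0 reads in PEA1 and 3 to 7 in PEA2, at least 1.03-fold higher (FDR = 0.0001497). TRIM24, a transcriptional cofactor, had log2FC values of 0.54, 1.23 and 0.35 in the A2780, PEA and PEO pairs (FDR = 0.006152 and 5.939e-07 in the first 2). ENSG00000230383 had -0.58, -0.12 and 0.36, and did not pass in the A2780 and PEA pairs (FDR = 0.1468 and 0.7554).

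The 5 genes whose log2 values were most like those of AKR1D1 over the 18 libraries were TMEM132E (Pearson r = 0.962), C2orf91 (0.96), OBP2A (0.952), CCL5 (0.946) and CALHM3 (0.944). Each of them was near 0 everywhere but PEO4. TMEM132E had 122 to 145 reads in PEO4 and at most 1 elsewhere, and C2orf91 had 40 to 46 and 0 elsewhere. OBP2A, an odorant-binding protein, had 35 to 56 reads in PEO4 and at most 1 elsewhere. The chemokine CCL5 had 57 to 70 and at most 2, and CALHM3 had 77 to 87 and at most 3. These correlations rest on 3 libraries against 15 and on the library-size steps of genes at 0 reads, so they describe a shared on or off pattern and no more.

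**Figure D4:**
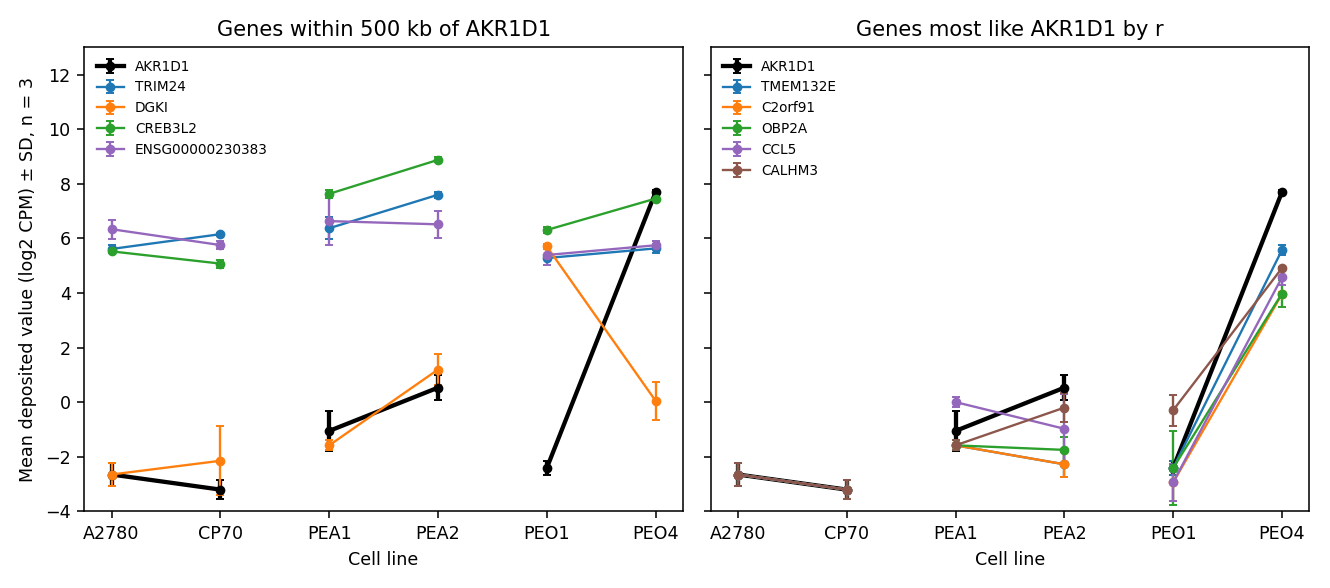
Mean deposited value (log2 CPM) ± SD of 3 libraries per cell line for AKR1D1 with the 4 measured genes within 500 kb (left) and the 5 genes of highest Pearson r (right), lines joining the members of a pair. AKR1D1 rises from the floor in PEO1 to 7.69 in PEO4 while CREB3L2 changes by 1.15 and DGKI by -5.66, and the genes on the right rise in PEO4 alone.

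The genes most like AKR1B1 were SLC26A2 (r = 0.977), CTTNBP2 (0.975), C12orf75 (0.974), BLZF1 (0.973) and STIM1 (0.973). SLC26A2, a sulfate transporter, had 1440 to 1909 reads in PEA1 and 1758 to 3462 in PEA2, against 84 to 231 in the A2780 pair. CTTNBP2 had 19 to 95 reads in PEA1 and PEA2 and at most 3 elsewhere. For AKR1B10 the closest were MMP14 (0.965), ZNF69 (0.936), KIAA0319L (0.93), CCDC82 (0.927) and ENSG00000228437 (0.926). MMP14, a membrane matrix metalloproteinase, had 2 to 4 reads in A2780 and CP70, 244 to 369 in PEA1, 189 to 347 in PEA2, 3 in each PEO1 library and 123 to 155 in PEO4.

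Around AKR1B1 and AKR1B10, 4 genes were measured. CALD1, the actin-binding protein caldesmon, fell in CP70 (log2FC -1.84, FDR = 3.599e-11), and the nucleotide-sugar transporter SLC35B4 fell in PEA2 (-0.96, FDR = 1.722e-05). BPGM, an enzyme of red cell glycolysis, fell in CP70 (-0.93, FDR = 0.02093), and EXOC4, a subunit of the exocyst, rose in PEA2 (0.36, FDR = 0.003893). SLC35B4 also passed in the A2780 pair (log2FC -0.40, FDR = 0.04099). Around the AKR1C genes, besides AKR1E2, NET1, a guanine nucleotide exchange factor, fell in PEA2 (-0.30, FDR = 0.004021) and in CP70 (-0.22, FDR = 0.044). The long noncoding RNA LINC00704 had 0 reads in PEA1 and 43 to 70 in PEA2, at least 10.95-fold higher (FDR = 8.041e-08). CALML3 and CALML3-AS1, which overlap and whose reads may be shared, were at 115 to 347 reads in PEO1 and at 0 to 11 in PEO4, with log2FC values of -6.26 and -3.61.

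Genes of pathways in which these enzymes act were counted from lists, against 22.2% of all genes higher and 17.7% lower in the A2780 pair and 32.5% higher and 29.4% lower in the PEA pair. Of 28 other steroid-converting enzymes 11 were measured. In the A2780 pair 3 were higher and 3 lower (median log2FC -0.31), and in the PEA pair 5 were higher and 2 lower (median 0.54). HSD17B4, a peroxisomal enzyme of bile acid and fatty acid side chains, had 35 to 40 reads in PEA1 and 282 to 562 in PEA2 (log2FC 2.60, FDR = 1.66e-13). Among bile acid enzymes, the pathway in which AKR1D1 acts, 7 of 17 were measured, with 2 higher and 1 lower in the A2780 pair and 3 higher and 1 lower in the PEA pair.

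HSD3B7, which acts on the same bile acid intermediates before AKR1D1, rose in both resistant lines tested. It had 11 to 20 reads in A2780 and 135 to 227 in CP70 (log2FC 2.77, FDR = 8.58e-07), and 4 to 11 in PEA1 and 68 to 104 in PEA2 (2.77, FDR = 4.64e-07). In the PEO pair it was lower in PEO4, with 83, 102 and 220 reads against 2, 6 and 6. SLC27A2, an acyl-CoA synthetase of bile acids and very long fatty acids, rose in CP70 from 5 to 17 reads to 104 to 168 (log2FC 3.46, FDR = 2.18e-06), and had 71, 67 and 129 reads in PEO1 and 5, 5 and 6 in PEO4. CYP7B1, an oxysterol hydroxylase, passed in the PEA pair as lower at no more than 3 reads in either line, so no fold is given. CYP7B1 was higher in PEO4, with 21, 13 and 36 reads in PEO1 and 52, 57 and 37 in PEO4 (log2FC 1.61). ACOT8, a peroxisomal thioesterase chosen after its values were seen, was also higher there (0.90, no overlap). Of the 7 measured, 2 thus had a positive and 5 a negative log2FC in PEO4, where AKR1D1 was high.

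The other carbonyl and quinone reductases moved in both directions. Of 22 listed 19 were measured, with 7 higher and 3 lower in the A2780 pair (median log2FC -0.02) and 4 higher and 7 lower in the PEA pair (median -0.34). CBR1, a carbonyl reductase of prostaglandins and anthracyclines, had 0 reads in each A2780 library and 66, 42 and 31 in CP70, at least 10.0-fold higher (FDR = 4.64e-13). DHRS3, a retinal reductase, rose in CP70 by 4.48 (FDR = 1.04e-13) and in PEA2 by 2.42 (FDR = 1.04e-09) on the log2 scale. ALDH2, the mitochondrial aldehyde dehydrogenase, fell in PEA2 (log2FC -2.58, FDR = 1.76e-10).

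Of the 8 genes of the NRF2 axis all were measured. NFE2L2 itself rose in PEA2 (log2FC 0.53, FDR = 4.85e-05) and, by a smaller and unstable amount, in CP70 (0.24, FDR = 0.0464), where FDR values of 0.0573 to 0.129 were obtained under 9 of the alternatives. KEAP1 rose in PEA2 (0.52, FDR = 0.00303) and had -0.08 in the A2780 pair (FDR = 0.697), a value that was 0.00 without CP70 replicate 3. In the PEA pair 5 of the 8 were higher and 1 lower, with MAFF (3.24, FDR = 2.71e-09), MAFK (3.03, FDR = 7.1e-06) and BACH1 (2.31, FDR = 3.99e-12), partners or competitors of NRF2 at its sites, in front. In CP70 2 were higher and 0 lower. NFE2L2 had a log2FC of 1.32 in the PEO pair without overlap.

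NRF2 targets outside the family were mostly higher in CP70. Of 23 listed 20 were measured, and 14 were higher and 0 lower than in A2780 (median log2FC 0.49), while in PEA2 5 were higher and 6 lower (median -0.08). OSGIN1, an oxidative stress growth inhibitor, had 2, 1 and 0 reads in A2780 and 95, 78 and 65 in CP70, a ratio of 54.4 with a 95% exact counting interval from 18.4 to 266. HMOX1, heme oxygenase, rose in CP70 (log2FC 2.23, FDR = 1.48e-05), and FTH1, the ferritin heavy chain, rose in PEA2 (2.15, FDR = 3.3e-10). NQO1, a quinone reductase widely read as an NRF2 target, rose in CP70 (0.51, FDR = 0.000193) and fell in PEA2 (-1.87, FDR = 1.98e-12), and it had 0.42 in the PEO pair. NQO1 was thus lower in PEA2, as AKR1C3 was, while the targets as a list went both ways there, with 5 higher and 6 lower.

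**Figure D5:**
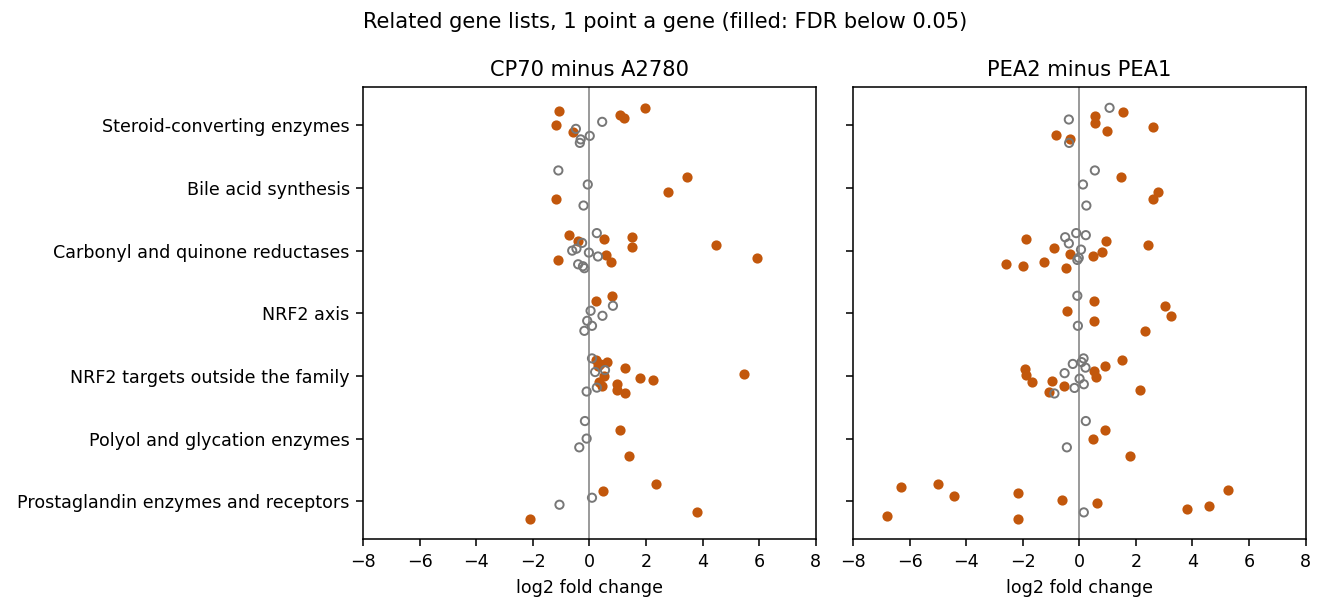
log2 fold change of the measured genes of 7 related lists in the A2780 pair (left) and the PEA pair (right), 1 point a gene, filled where the FDR is below 0.05, without genes at 3 reads or fewer in all 6 libraries of the pair. Values come from the limma fit and for genes at 0 reads in a line depend on the 0.5 reads added. NRF2 targets lie mostly to the right of 0 in the A2780 pair and on both sides in the PEA pair, where the prostaglandin genes spread the most.

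Of 6 polyol and glycation genes, which share substrates with AKR1B1, 5 were measured, and 2 were higher and 0 lower in the A2780 pair and 3 higher and 0 lower in the PEA pair. Of 17 prostaglandin enzymes and receptors, the pathway AKR1C3 and AKR1B1 feed into, 12 were measured. In CP70 3 were higher and 1 lower, with 6 of the 12 at no more than 3 reads in all 6 libraries of that pair. In PEA2 4 were higher and 7 lower (median log2FC -1.39). PTGS2, the inducible cyclooxygenase, rose in CP70 (2.34, FDR = 9.9e-05) and in PEA2 (5.25, FDR = 1.16e-09). PTGER4, a prostaglandin E receptor, had 0 reads in each A2780 library and 17, 13 and 4 in CP70, at least 2.18-fold higher (FDR = 6.8e-07).

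HPGD and SLCO2A1 fell in PEA2, as AKR1C3 did, while the prostaglandin reductases PTGR1 (log2FC 0.23, FDR = 0.336) and PTGR2 (-0.11, FDR = 0.725), chosen after their values were seen, did not pass. HPGD, which inactivates prostaglandins by oxidation, had 51, 54 and 70 reads in PEA1 and 0, 0 and 2 in PEA2, a ratio of 146 with a 95% exact counting interval from 39.8 to 1214 (FDR = 7.39e-09). The transporter SLCO2A1 had 179, 148 and 203 reads in PEA1 and 3, 2 and 5 in PEA2 (log2FC -6.29, FDR = 3.86e-09). ABCC4, an exporter of prostaglandins and drugs, fell in CP70 (-2.11, FDR = 2.9e-10) and in PEA2 (-2.18, FDR = 1.34e-10). In the PEO pair, where no test is given, the median log2FC was -0.06 for the steroid-converting enzymes, -0.23 for bile acid synthesis, 0.11 for NRF2 targets and 0.96 for the prostaglandin genes, against -0.02 over all genes. SERPINA1, the hepatocyte marker measured, moved with AKR1D1 in the PEO pair. It had 19, 17 and 56 reads in PEO1 and 156, 208 and 158 in PEO4, and 318 to 565 reads in PEA1 and PEA2, where AKR1D1 was at no more than 3 reads. Its part in the AKR1D1 values was not tested.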

How the data were processed

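RNA-seq of 18 libraries was used, 3 per line, grouped by the cell line in the labels. The authors used Bowtie2 (hg19) for alignment, featureCounts for counting per gene, and limma. Their deposited table gives CPM on a log2 scale for 12853 genes, where each count had 0.5 reads added before division by a scaled library size. Tool versions, read length and the treatment of reads matching several genes are not given in the sources used here. Whole reads were recovered from 100% of the values (within 0.01 of a whole number). The deposited log2 values were fitted with limma 3.58.1 (R 4.3.3, variance trend) in 1 fit of 18 libraries with a mean per line, and p-values were adjusted by the Benjamini-Hochberg method over all 12853 genes. A gene was called at an FDR below 0.05, and past the fold threshold at |log2FC| above 2, as in the study. The PEO pair selected the genes and was not tested. A fold against a line at 0 reads in all libraries was computed against 3 reads per library, and one against 1 to 3 reads in all was given with an exact conditional interval. Named genes were all measured members, up to 3 genes per list and pair (the largest |log2FC| among those past both thresholds whose libraries do not overlap), the 5 genes of highest Pearson r with AKR1D1, AKR1B1 and AKR1B10, genes within 500 kb, and NFE2L2, KEAP1 and NQO1. The members and lists were chosen with earlier results of these data known. Libraries of a line differed by 1.74 to 13.6 times the sampling variance, more than the sampling of reads alone gives. This cannot tell separate cultures from repeat libraries of the same culture. Gene spans and exon lengths came from GENCODE v44lift37 (GRCh37), and promoters from RefSeq. The limma fit was tested on simulated data with changes in well-covered genes. Changes of genes near 0 reads, folds against a floor and ratio intervals were not simulated.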

Additional observations from a re-analysis of the deposited data

Results flagged for a closer look

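Changes that differed between the PEA pair and the A2780 pair were singled out, by a limma test of the difference across all genes. For AKR1C3 the change in the PEA pair minus that in the A2780 pair was -5.10 on the log2 scale (FDR = 6.15e-06), and in the A2780 pair the gene had at most 2 reads in a library. For AKR1B1 it was 0.56 (FDR = 0.00398), and under quantile normalization 0.18 (FDR = 0.322). For AKR1A1 it was 1.09 (FDR = 0.000169). For AKR1E2 it was -3.04 (FDR = 0.000191), with at most 2 reads in each library of PEA1 and PEA2. Groups of 3 libraries are too small for a test of outlying samples.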

How the results depend on the processing

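Of 223 values of the members and AKR1E2 under the alternatives, without comparisons in which neither line exceeded 3 reads (AKR1C3 in the A2780 pair and AKR1D1 in the tested pairs among them), 210 kept their direction and side of the threshold, 5 lost and 7 gained a call, and 1 reversed, AKR1B1 in the PEA pair at -0.05 under quantile normalization. Of 438 values of list genes 428 kept both, 9 lost the call, all of NFE2L2 in the A2780 pair, and 1 reversed, KEAP1 in the A2780 pair, whose values ran from -0.15 (without A2780 replicate 2) to 0.00 (without CP70 replicate 3). The cause was not tested. The number of members passing in the A2780 pair was 0 and became 1 under quantile normalization, which was AKR1C3 at 1 to 2 reads, and it ranged from 0 to 1 when a replicate was left out (AKR1B1 without A2780 replicate 2, AKR1C3 without A2780 replicate 3 or CP70 replicate 1). The number past the fold threshold in the PEA pair became 2 at |log2FC| above 1, by construction, and ranged from 1 to 2 with a replicate left out (AKR1D1 at the floor, without PEA1 replicate 3). The number passing in the PEA pair was 3 to 5 and that of differing changes 3 to 5 under all alternatives run.

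Within a pair, same-numbered replicates deviated together weakly at most, with correlations from -0.1838 to 0.2198 over 6426 genes. The highest were 0.2198 and 0.1442, for replicates 1 and 2 of the A2780 pair. With a replicate block the count of members called was 0 for CP70 against A2780, 4 for PEA2 against PEA1 and 4 for the difference. The sum of AKR1C1, AKR1C2 and AKR1C3 was not run, since AKR1C1 and AKR1C2 were not analysed here. Depth limits AKR1B10, AKR1C3 and AKR1E2, whose libraries often held fewer than 20 reads.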
